A study of Oryza sativa Japonica Group with 12 samples.

Results

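The F1 hybrids ‘CH7/8’ and ‘CH8/9’ of rice share the parent ‘CH8’ and differ in the other parent, which is ‘CH7’ in the first and ‘CH9’ in the second. The comparison described here set the 2 arrays of ‘CH7/8’ directly against the 2 arrays of ‘CH8/9’, chosen by their line labels, which are 4 of the 12 Affymetrix GeneChip arrays of the series. The other 8 arrays came from ‘CH7’, ‘CH8’, ‘CH9’ and ‘CH7/9’, 2 from each line. All lines belong to *Oryza sativa* Japonica Group, and whole plants grown in a greenhouse were sampled at tillering, each RNA from its own plant according to the methods. Those methods give 3 plants per line, and 2 arrays per line were analysed here. Every array held intensities for 54922 probe sets, which were compared on the log2 scale. The number of arrays limits the precision.

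Hybrid weakness is poor growth of first-generation plants whose parents grow normally. It is generally traced to alleles that are harmless within each parent and act badly when a cross brings them together, and in several plant species one of the interacting genes belongs to the immune receptors. Weak rice hybrids are commonly stunted and pale, with poor roots. In a diploid hybrid each parent contributes one copy of a gene, so that hybrids with a common parent differ genetically in the copies from the parent they do not share.

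The ‘CH7/8’ plants were not alike. Across all probe sets, ‘CH7/8’ replicate 2 correlated more closely with ‘CH8/9’ replicate 1 (r = 0.984) than with ‘CH7/8’ replicate 1 (r = 0.966). The closest array of ‘CH7/8’ replicate 1 was ‘CH9’ replicate 2 (r = 0.980). The correlations run over probe sets, which do not count as replicates. A 2-fold gap between replicates occurred at 3388 probe sets in ‘CH7/8’ and at 1727 in ‘CH8/9’. In the other lines it occurred at 2973 in ‘CH8’, 2969 in ‘CH7/9’, 1554 in ‘CH9’ and 1314 in ‘CH7’. Wide gaps were thus not particular to ‘CH7/8’. ‘CH8’ replicate 1 was likewise closer to ‘CH8/9’ replicate 1 (r = 0.982) than to ‘CH8’ replicate 2 (r = 0.969). Against the ‘CH8/9’ mean, ‘CH7/8’ replicate 1 was at least 2-fold higher at 849 probe sets (1.55%) and lower at 1483 (2.70%). For ‘CH7/8’ replicate 2 these numbers were 254 (0.462%) and 575 (1.05%). Only 51 higher and 101 lower probe sets were shared by both arrays, and at 101 others the arrays lay 2-fold away in opposite directions (60 with replicate 1 above and 41 with it below). The ‘CH7/8’ arrays are therefore given separately for the genes and lists described in detail, and a single difference is the fitted one over both. Among all probe sets, 7300 shared their values in all 12 arrays with at least 1 other, so counts of probe sets include repeats (50208 sets of values were distinct). None of the 24 called between the hybrids did so with another of the 24.

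Between the hybrids, 24 probe sets (0.0437% of those tested) met the thresholds for a call, which were a limma p of 0.05 or less after Benjamini-Hochberg adjustment over all probe sets and a difference of 2-fold or more. There were 6 higher in ‘CH7/8’ (0.0109%) and 18 lower (0.0328%). At an unadjusted p under 0.05 the numbers were 1069 (1.95%) and 1100 (2.00%). Together these were 2169 of 54922, a share below the 0.05 that evenly spread p-values would give. All 24 were at least 2-fold away from the ‘CH8/9’ mean in both ‘CH7/8’ arrays, in the same direction. This largely follows from the call, which used the same arrays. A single gene was listed for 8 of them, 2 higher and 6 lower in ‘CH7/8’, and the others had no listed gene. Only *CIPK27* had a name of its own, which makes 1 lower (0.0365%) and 0 higher of the 2739 named genes.

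*CIPK27* encodes a protein kinase of the family that is switched on by calcineurin B-like calcium sensors. Its log2 intensity was 4.25 and 4.24 in ‘CH7/8’, against 6.98 and 6.68 in ‘CH8/9’. The hybrids did not overlap, and the ‘CH7/8’ arrays were nearly identical. The log2 difference was −2.58 (standard error 0.26, adjusted p = 0.0161 from limma), a level 5.99-fold higher in ‘CH8/9’. In the parents, *CIPK27* stood at 4.28 in ‘CH7’, 4.59 in ‘CH8’ and 8.21 in ‘CH9’ (means of 2 arrays). ‘CH7/8’ was thus at the level of both its parents, while ‘CH8/9’ lay between ‘CH8’ and ‘CH9’. The call was lost when any single array of either hybrid was left out (adjusted p from 0.0845 to 0.172 from limma), without either array of ‘CH7/9’ (adjusted p = 0.0589), and with only the 4 arrays compared (adjusted p = 0.273). A pseudocount of 50 made the difference −1.25, without a call (adjusted p = 0.0650 from limma). Of the 100 measured genes of calcium signaling, *CIPK27* alone was called. The median log2 difference of that list was 0.02, beside −0.02 over all named genes. The related kinase gene *CIPK33* had 6.92 and 6.45 in ‘CH7/8’ and 7.28 and 7.48 in ‘CH8/9’, a difference of −0.70 that was not called.

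The largest difference was in *LOC4350688*, a protein-coding gene without a name in the RefSeq table. Its log2 intensity was 2.71 and 2.94 in ‘CH7/8’, against 8.37 and 8.05 in ‘CH8/9’. The difference of −5.39 (standard error 0.16, adjusted p = 6.26e-06 from limma) corresponds to a level 41.8-fold higher in ‘CH8/9’. ‘CH7’ (2.55) and ‘CH8’ (2.56) were as low as ‘CH7/8’, and ‘CH9’ stood at 8.94. *LOC4342178*, a transcribed pseudogene, had the same pattern, at 1.40 and 1.40 in ‘CH7/8’ and 4.96 and 5.36 in ‘CH8/9’. *LOC4348295*, a long non-coding RNA, differed by −2.96, with ‘CH8’ at 3.61 between ‘CH7’ (2.44) and ‘CH9’ (7.05). The protein-coding genes *LOC4350847* and *LOC4342832* differed by −3.04 and −3.05. The values of the lower hybrid were close to the floor of the arrays, whose lower quartiles lay between 2.25 and 2.51 on the log2 scale, so the folds depend on that floor.

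In the opposite direction, *LOC9271826* and *LOC4331350*, both protein-coding, were the called genes that were higher in ‘CH7/8’. *LOC9271826* had 5.13 and 4.62 in ‘CH7/8’ and 1.63 and 1.53 in ‘CH8/9’. *LOC4331350* had 5.57 and 5.24 in ‘CH7/8’ and 2.78 and 2.73 in ‘CH8/9’. The differences were 3.29 (standard error 0.18, adjusted p = 0.000230 from limma) and 2.65 (standard error 0.16, adjusted p = 0.000366). Here ‘CH8’ and ‘CH9’ were low and ‘CH7’ was high, at 6.08 and 7.26. *LOC9271826* in ‘CH8/9’ was below the lower quartile of the arrays. With a pseudocount of 50 the differences became 0.59 (adjusted p = 0.0844 from limma) and 0.71, both under 2-fold, and with only the 4 arrays compared neither was called (adjusted p = 0.273 for each). In the gene order of the RefSeq assembly, 31 listed genes lie between *LOC9271826*, which was higher in ‘CH7/8’, and *LOC4350688*, which was lower. *LOC4350847* is on the same chromosome, with 259 listed genes between it and *LOC4350688*.

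**Figure D1:**
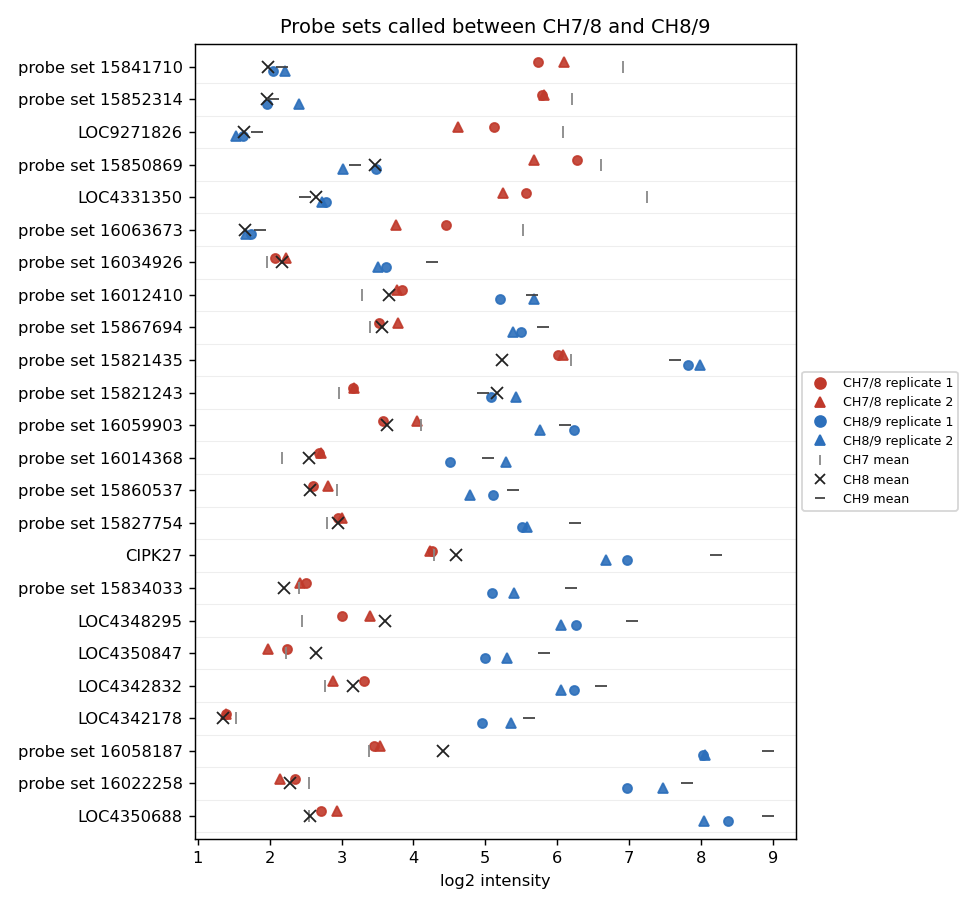
Log2 intensity of the 24 probe sets called between ‘CH7/8’ and ‘CH8/9’, from the largest difference above 0 at the top to the largest below 0 at the bottom. Red symbols are ‘CH7/8’ arrays, blue symbols ‘CH8/9’ arrays (circle for replicate 1, triangle for replicate 2), and the vertical stroke, cross and horizontal stroke are the means of ‘CH7’, ‘CH8’ and ‘CH9’. The red and blue symbols do not overlap in any row, which largely follows from the call. The cross lies with the lower of ‘CH7’ and ‘CH9’ in most rows, which can follow partly from the call.

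Every called probe set followed the parent that the hybrids do not share. All 6 that were higher in ‘CH7/8’ were also called higher in ‘CH7’ than in ‘CH9’, and all 18 that were lower were called lower in ‘CH7’. The parental arrays are separate from those of the hybrids, although the fit shares 1 estimate of the spread. ‘CH8’ was within 2-fold of the lower of ‘CH7’ and ‘CH9’ at 21 of the 24 probe sets (6 of the higher and 15 of the lower). There, one hybrid had a high and a low parent and the other had 2 low parents. This can follow partly from the call, since with a high ‘CH8’ the linear means of the parents differ less on the log2 scale. The share over all probe sets was not counted. The exception on the other side, with ‘CH8’ near the higher of them, was probe set 15821243, with no listed gene. It was high in ‘CH8’ (5.22 and 5.10) and in ‘CH9’ (4.72 and 5.23) and low in ‘CH7’ (3.11 and 2.82). ‘CH7/8’ stood at 3.17 and 3.18, at the level of ‘CH7’, and ‘CH8/9’ at 5.08 and 5.42. At this probe set ‘CH7/8’ reached 0.413 of the linear mean of its parents.

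For the 18 probe sets lower in ‘CH7/8’, the level in ‘CH8/9’ relative to the linear mean of ‘CH8’ and ‘CH9’ ran from 0.706 in *CIPK27* to 2.01 in probe set 15821435, with a median of 1.24, and was above 1 in 14. For the 6 that were higher, the level in ‘CH7/8’ relative to the linear mean of ‘CH7’ and ‘CH8’ ran from 0.537 in *LOC4331350* to 1.43, with a median of 0.905, and was above 1 in 2. These ratios are descriptions, computed after the calls were known, and were not tested.

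Far fewer probe sets separated the hybrids than the parents. Between ‘CH7’ and ‘CH9’, 113 probe sets were called higher in ‘CH7’ (0.206%) and 93 lower (0.169%). At the 113, where the median of ‘CH7’ minus ‘CH9’ was 1.77, the median difference from the ‘CH8/9’ mean was 0.49 in ‘CH7/8’ replicate 1 and 0.24 in ‘CH7/8’ replicate 2. Replicate 1 had the sign of the parents at 96 and replicate 2 at 85, and both did at 80. Of the 113, 30 shared their values in all arrays with another. Over the 93 distinct ones the medians were 0.54 and 0.33, with the parental sign at 83 in replicate 1 and 70 in replicate 2. At the 93 called lower in ‘CH7’, with a parental median of −2.12, the medians were −0.69 and −0.66, with the parental sign at 70 and 74 and in both arrays at 62. A hybrid at the log2 mean of its parents would give 0.5 times the parental difference, which is 0.88 and −1.06. The probe sets were chosen on the same parental arrays, so these 2 values can be too large in size. The shortfall of the hybrids from them is therefore not a result by itself. Over all probe sets the medians of the ‘CH7/8’ replicates were 0.03 and 0.01. Of all 50208 distinct sets of values, 28674 had the parental sign in replicate 1 and 23574 in replicate 2, and 15715 in both. The picture for ‘CH7/8’ replicate 2 depends on how the probe sets were chosen. With 2-fold and an unadjusted p under 0.05, 1706 probe sets (3.11%) were higher in ‘CH7’ and 791 (1.44%) lower. The 1706 had a median of 0.28 in replicate 1 and −0.15 in replicate 2, where 581 had the parental sign. Without dim probe sets, the 68 called higher in ‘CH7’ had medians of 0.61 in replicate 1 and 0.54 in replicate 2, with the parental sign at 67 and 62.

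**Figure D2:**
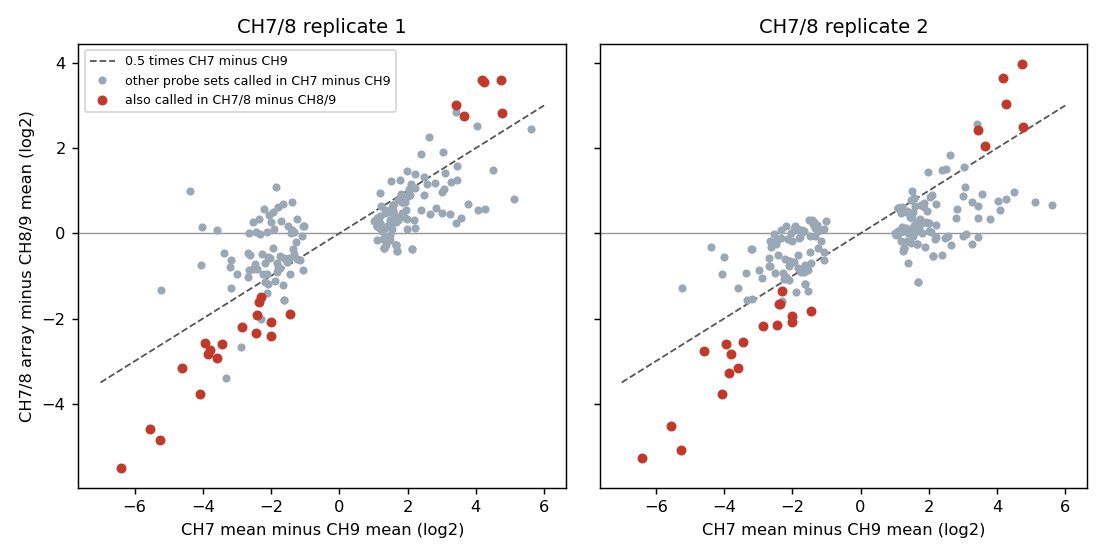
Difference of each ‘CH7/8’ array from the ‘CH8/9’ mean (log2) against ‘CH7’ mean minus ‘CH9’ mean (log2), at the 206 probe sets called between these parents. Red points were also called between the hybrids, and the dashed line is 0.5 times the parental difference. The 24 red points lie on the parental side of 0 in both panels, while most grey points lie between 0 and the dashed line.

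Of the named genes, 4 were called higher in ‘CH7’ than in ‘CH9’ (0.146%) and 11 lower (0.402%), and *CIPK27* alone was also called between the hybrids. *CIPK33* had a parental difference of −3.37, and its ‘CH7/8’ arrays lay −0.46 and −0.94 from the ‘CH8/9’ mean. *KRP5*, an inhibitor of cyclin-dependent kinases, had −1.83 in the parents and −0.91 and −0.51 in the ‘CH7/8’ arrays. The strigolactone synthesis gene *CCD8A* had −1.94 in the parents and 0.51 and 0.09 in the ‘CH7/8’ arrays. *CESA1* and *CESA8*, cellulose synthases of the primary wall, had −1.35 and −1.73 in the parents. In ‘CH7/8’ replicate 1 they lay −0.36 and −0.53 from the ‘CH8/9’ mean, and in replicate 2 they lay 0.27 and 0.08 from it.

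Whether the hybrids differed by more than these parents was asked with a contrast that subtracts 0.5 times ‘CH7’ minus ‘CH9’. It called 1 probe set (0.00182%), *LOC4350688*, lower in ‘CH7/8’ by 2.19 beyond the parental term (value −2.19, standard error 0.18, adjusted p = 0.0417 from limma). Without adjustment, 912 were higher (1.66%) and 1360 lower (2.48%) at p under 0.05. Together these were 2272 of 54922, again a share below 0.05. On the log2 scale the mean of a high and a low parent lies far below their linear mean. The linear intensity of *LOC4350688* in ‘CH8/9’ was 298, which is 1.20 times the mean of ‘CH8’ (5.91) and ‘CH9’ (492). The call was lost under quantile normalization (adjusted p = 0.0514 from limma), with a pseudocount of 50, and without any single array (adjusted p from 0.0518 to 0.352).

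*CESA4* and *CESA9*, cellulose synthases of the secondary wall, ranked high in this contrast among named genes, with *CESA4* at its largest value, and neither was called. *CESA4* stood at 8.62 and 7.35 in ‘CH7/8’ and at 7.11 and 5.99 in ‘CH8/9’. *CESA9* stood at 6.46 and 5.36 in ‘CH7/8’ and at 4.80 and 4.60 in ‘CH8/9’. *CESA4* averaged 4.43 in ‘CH7’, 8.37 in ‘CH8’ and 7.10 in ‘CH9’, and *CESA9* averaged 2.88 in ‘CH7’, 5.96 in ‘CH8’ and 4.74 in ‘CH9’. ‘CH7’ was thus below ‘CH9’, and ‘CH7/8’, with a low and a high parent, was near ‘CH8’. ‘CH8/9’ averaged 6.55 in *CESA4* and 4.70 in *CESA9*, below the means of both its parents, in *CESA9* only slightly below ‘CH9’. Both hybrids thus entered the contrast. The limit of the log2 mean given for *LOC4350688* holds here for ‘CH7/8’, and less for ‘CH8/9’, whose parents were closer together. The contrast was 2.77 for *CESA4* (standard error 0.54) and 2.14 for *CESA9* (standard error 0.46), both with an adjusted p of 0.999 from limma. *BC1* at locus *LOC4333114*, a COBRA-like gene of the secondary wall, had 6.52 and 4.49 in ‘CH7/8’ and 4.53 and 3.57 in ‘CH8/9’, and a contrast of 2.60. In these 3 genes ‘CH7/8’ replicate 1 was the higher array by more than 1 log2 unit. The cell wall and expansin list as a whole had 0 called genes of 172, a median log2 difference of 0.04, and 31 higher (18.0%) and 12 lower (6.98%) genes whose arrays did not overlap, beside 14.0% and 14.5% of all named genes.

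Photosynthesis and chlorophyll genes were the list with the highest median difference. Of 38 measured genes, 0 were called, 31 had a difference above 0 and the median was 0.33. Of all 2739 named genes, 1270 had a difference above 0 and 1469 below. In 18 (47.4%) both ‘CH7/8’ arrays were above both ‘CH8/9’ arrays, and in 2 (5.26%) both were below, beside 14.0% and 14.5% of all named genes. Without adjustment, 10 were higher and 0 lower at p under 0.05, beside 2.23% and 2.19% of named genes. The 2 ‘CH7/8’ arrays differed in size, with medians of 0.57 in replicate 1 and 0.16 in replicate 2. Relative to the mean of the 12 arrays, the median gene of the list stood at 0.10 and −0.18 in ‘CH7/8’ and at −0.48 and −0.23 in ‘CH8/9’. The second ‘CH7/8’ array was therefore just above the second ‘CH8/9’ array. In the parents it stood at 0.17 and 0.14 in ‘CH7’, −0.05 and −0.04 in ‘CH8’, and −0.12 and 0.02 in ‘CH9’, so that both ‘CH8/9’ arrays, and also ‘CH7/8’ replicate 2, were below every array of their own parents. In bulk tissue, fewer green cells and less RNA per green cell cannot be told apart.

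The small subunit gene of Rubisco, *rbcS*, had the largest difference of the list, with 7.61 and 7.36 in ‘CH7/8’ and 6.03 and 6.89 in ‘CH8/9’ (difference 1.02, standard error 0.29, adjusted p = 1.00 from limma). *LFNR1*, a leaf ferredoxin-NADP reductase, had 8.46 and 8.02 in ‘CH7/8’ and 7.14 and 7.52 in ‘CH8/9’. The light-harvesting gene *CAB2R* had 7.44 and 7.02 in ‘CH7/8’ and 6.26 and 6.42 in ‘CH8/9’. In all of these, replicate 1 was the higher ‘CH7/8’ array. Some genes of chlorophyll synthesis ran the same way without overlap, while in *CHL1*, *CHLP*, *CHLG* and *CAO* the hybrids overlapped. *CHLH*, a magnesium chelatase subunit, had 5.72 and 5.51 in ‘CH7/8’ and 4.82 and 5.18 in ‘CH8/9’, and *PORB*, a protochlorophyllide reductase, had 5.89 and 5.39 in ‘CH7/8’ and 4.49 and 5.33 in ‘CH8/9’. *GLK1*, a transcription factor of chloroplast development, had 6.31 and 5.58 in ‘CH7/8’ and 5.27 and 5.34 in ‘CH8/9’. The genes of chlorophyll breakdown *SGR*, *NOL* and *NYC1* had differences of −0.22, −0.17 and −0.13, and the hybrids overlapped in *SGR* and *NYC1*. The ‘CH7/8’ arrays of *SGR* lay −0.72 and 0.28 from the ‘CH8/9’ mean, on opposite sides of it.

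**Figure D3:**
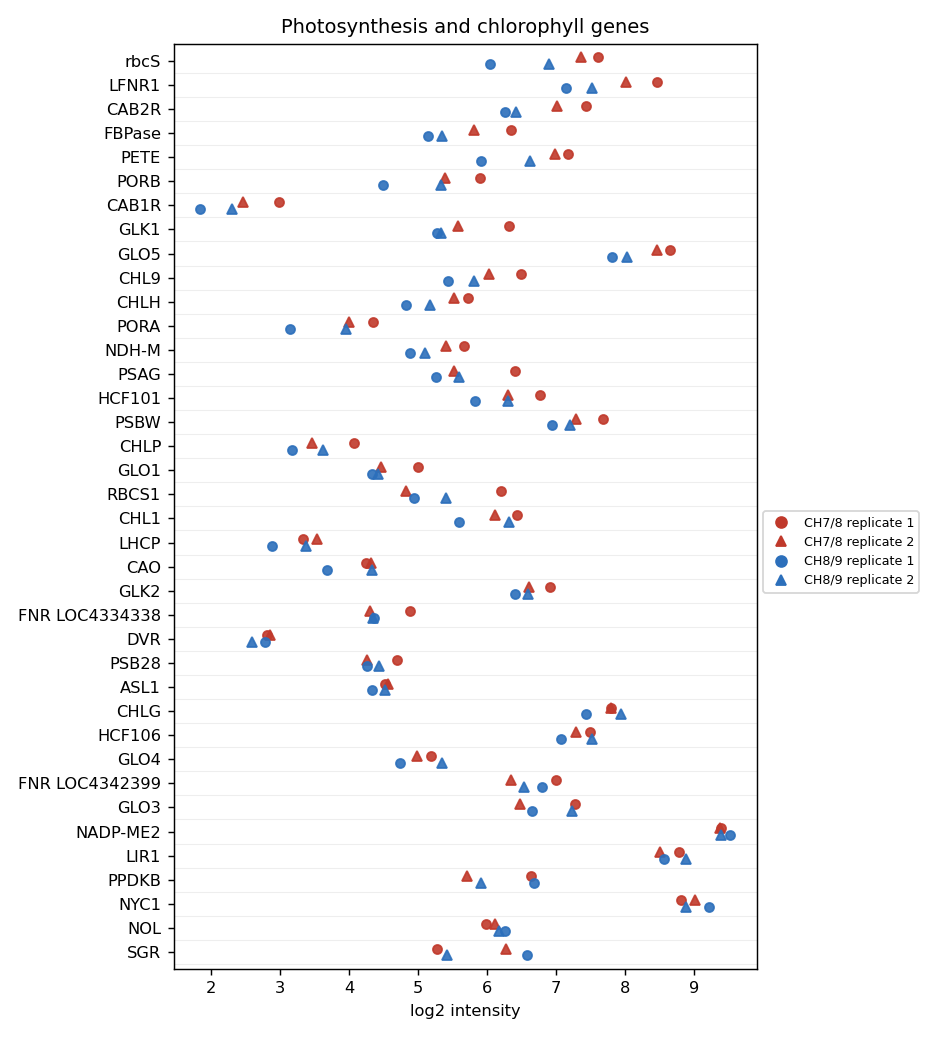
Log2 intensity of the 38 photosynthesis and chlorophyll genes in ‘CH7/8’ (red) and ‘CH8/9’ (blue), circle for replicate 1 and triangle for replicate 2, ordered by the fitted difference. In the upper rows the red symbols lie to the right of the blue ones, and the ‘CH7/8’ circle is usually the farthest right.

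Outside this list, the chloroplast genes *rcaA1* and *GLN2* were among the named genes with the largest differences without overlap. *rcaA1*, Rubisco activase, had 8.20 and 7.80 in ‘CH7/8’ and 6.85 and 6.84 in ‘CH8/9’ (difference 1.15). *GLN2*, the chloroplast glutamine synthetase, had 8.60 and 8.09 in ‘CH7/8’ and 6.96 and 7.15 in ‘CH8/9’ (difference 1.29). *APX8*, an ascorbate peroxidase of the chloroplast, had 8.15 and 7.33 in ‘CH7/8’ and 6.47 and 7.06 in ‘CH8/9’ (difference 0.97). It was picked after its values were seen, from the redox and detoxification list. That list had a median of 0.0003, with 10 genes higher and 10 lower without overlap. The largest difference without overlap in it was −1.11, in *GRXC3*. None was called. Higher without overlap, and likewise not called, were also *PDC* at locus *LOC4339066*, a pyruvate decarboxylase gene (1.64), *PDX12* of vitamin B6 synthesis (1.28), *ADI1* of methionine salvage (1.25), the peroxygenase gene *PXG* (1.18) and the laccase gene *LAC10* (1.15). The same held for *RCABP69* (1.40), *LTP2-A* (1.12, standard error 1.48) and *ALDP* (1.07). Among the genes from *PDC* to *ALDP*, replicate 1 was the higher ‘CH7/8’ array in all but *PXG*. In *PDC* the ‘CH7/8’ arrays lay 2.31 and 0.97 from the ‘CH8/9’ mean.

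On the lower side, the largest differences without overlap after *CIPK27* were in *YAB3*, *CSLA9*, *YAB7*, *EXP4* and *GRF8*. In all 5, ‘CH7/8’ replicate 1 was far below ‘CH8/9’ and replicate 2 much closer to it. The YABBY transcription factor gene *YAB3* had 3.02 and 6.09 in ‘CH7/8’ and 6.79 and 7.28 in ‘CH8/9’ (difference −2.48, standard error 0.87, adjusted p = 1.00 from limma). *CSLA9*, of the cellulose synthase-like family, had 3.12 and 5.58 in ‘CH7/8’ and 6.02 and 6.38 in ‘CH8/9’. The expansin gene *EXP4* had 1.88 and 3.80 in ‘CH7/8’ and 3.85 and 4.84 in ‘CH8/9’. Both were thus closer to ‘CH8/9’ in replicate 2. *YAB7*, another YABBY gene, had 3.12 and 4.95 in ‘CH7/8’ and 5.32 and 6.05 in ‘CH8/9’. The growth-regulating factor gene *GRF8* had 3.46 and 5.26 in ‘CH7/8’ and 5.36 and 6.24 in ‘CH8/9’. Genes in which both ‘CH7/8’ arrays were similarly low were *GH3.1*, an auxin-conjugating enzyme, at 2.52 and 3.08 in ‘CH7/8’ and 4.44 and 3.94 in ‘CH8/9’, and *HSF05*, a heat stress transcription factor, at 3.25 and 3.59 in ‘CH7/8’ and 4.39 and 5.08 in ‘CH8/9’. Their differences were −1.39 and −1.31 (adjusted p = 0.778 and 0.749 from limma). The homeobox gene *HOX12* had 3.97 and 4.20 in ‘CH7/8’ and 5.75 and 5.02 in ‘CH8/9’, also without a call. The trehalose-6-phosphate phosphatase gene *TPP8* had 3.56 and 3.49 in ‘CH7/8’ and 4.25 and 4.56 in ‘CH8/9’.

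For cell cycle, kinesin and histone genes, the medians of the ‘CH7/8’ arrays lay on opposite sides of the ‘CH8/9’ mean. Of 118 measured genes, 89 had a fitted difference below 0, beside 1469 of all 2739 named genes, and 0 were called. The median difference from the ‘CH8/9’ mean was −0.40 in ‘CH7/8’ replicate 1 and 0.12 in replicate 2. In replicate 1, 28 of the 118 genes were at least 2-fold lower, beside 162 of all 2739 named genes. In replicate 2 these numbers were 0 and 47. The arrays were both below ‘CH8/9’ in 16 (13.6%) and both above in 3 (2.54%), beside 14.5% and 14.0% of all genes with a name. *CYCD2-2*, a D-type cyclin gene, had 4.45 and 6.30 in ‘CH7/8’ and 6.69 and 6.35 in ‘CH8/9’. *RPA32C*, a subunit gene of the replication protein that binds single-stranded DNA, had 2.40 and 3.96 in ‘CH7/8’ and 4.19 and 4.06 in ‘CH8/9’. Both genes were low in replicate 1 alone.

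MADS-box and flower genes had the lowest median, −0.22 over 59 genes, with −0.26 in replicate 1 and −0.18 in replicate 2. There were 46 with a difference below 0, beside 1469 of all 2739 named genes, and 0 called. Without overlap, 13 were below (22.0%) and 6 above (10.2%), beside 14.5% and 14.0% of all named genes. Their summed linear intensity was 4946 and 5274 in ‘CH7/8’ and 5289 and 6208 in ‘CH8/9’, so that ‘CH8/9’ replicate 2 stood above the other 3 arrays. The root marker list had a median of 0.02 over 17 genes and a summed intensity of 322 and 216 in ‘CH7/8’ and 263 and 194 in ‘CH8/9’. The root sum differed more between the replicates of each hybrid than between the hybrids. The part of organ proportions in the results was not tested.

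Ethylene and jasmonate genes had a median of 0.22 over 46 genes, with 0 called. Without overlap, 12 were higher (26.1%) and 4 lower (8.70%), beside 14.0% and 14.5% of all named genes. Relative to the mean of the 12 arrays the list stood at −0.01 and −0.01 in ‘CH7/8’ and at −0.06 and −0.29 in ‘CH8/9’, so that ‘CH8/9’ replicate 2 was apart from the other 3 arrays. The jasmonate synthesis gene *AOS* at locus *LOC4334233* had 5.63 and 6.34 in ‘CH7/8’ and 5.24 and 4.62 in ‘CH8/9’. *ACS2*, of ethylene synthesis, had 3.94 and 4.80 in ‘CH7/8’ and 3.72 and 3.16 in ‘CH8/9’. *JAZ6* and *JAZ7*, repressors of jasmonate responses, differed by 0.52 and 0.43. The medians of the ‘CH7/8’ arrays taken separately were 0.11 and 0.14.

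The immune and pathogenesis-related list, of interest because immune receptors take part in several known cases of hybrid weakness, had 0 called of 73 genes and a median of −0.08. The arrays were both higher in 3 (4.11%) and both lower in 11 (15.1%), beside 14.0% and 14.5% of all named genes. Its largest difference without overlap was −0.52, in the chitinase gene *Chib3H-a* at 2.19 and 2.03 in ‘CH7/8’ and 3.05 and 2.21 in ‘CH8/9’, close to the floor. *WRKY24*, a transcription factor gene, had 5.54 and 5.26 in ‘CH7/8’ and 4.97 and 4.88 in ‘CH8/9’. The medians of the other lists lay between −0.06 in aquaporins and in auxin and 0.06 in phytoalexins and in cytokinin. None of their genes was called, *CIPK27* of calcium signaling apart.

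**Figure D4:**
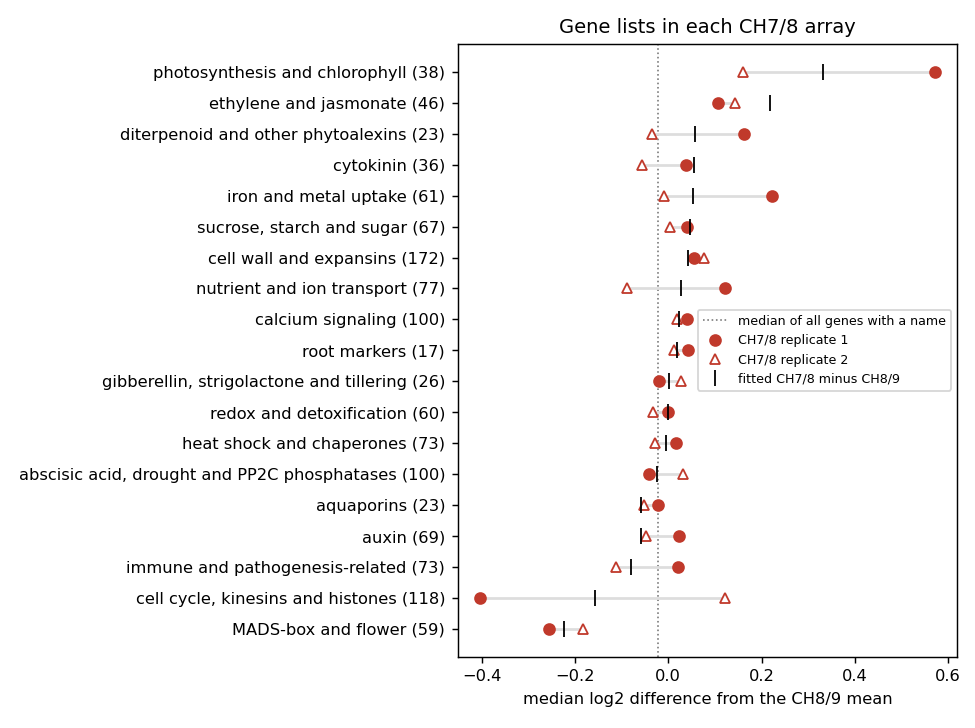
Median log2 difference from the ‘CH8/9’ mean over the genes of each list, for ‘CH7/8’ replicate 1 (filled circle) and replicate 2 (open triangle), with the median fitted difference as a stroke, and the number of genes in parentheses. The dotted line is the median over all genes with a name (−0.02). The replicates lie far apart for photosynthesis (0.57 and 0.16) and on opposite sides of 0 for the cell cycle (−0.40 and 0.12).

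Named genes were also picked by the widest gaps between the ‘CH7/8’ arrays. The choice was limited to genes where only 1 of these arrays lay outside the ‘CH8/9’ range or they lay on opposite sides of it. *EXP5*, an expansin gene, had 3.38 and 7.85 in ‘CH7/8’ and 6.51 and 6.66 in ‘CH8/9’. The growth-regulating factor gene *GRF7* had 2.57 and 6.38 in ‘CH7/8’ and 6.19 and 6.46 in ‘CH8/9’. *RAB16B*, a dehydrin gene responsive to abscisic acid, had 2.57 and 6.56 in ‘CH7/8’ and 6.40 and 6.55 in ‘CH8/9’. In these genes, and in *BCL1* and *ER2*, ‘CH7/8’ replicate 2 was near the ‘CH8/9’ arrays, except in *EXP5*, where it was higher. Replicate 1, from 2.57 to 3.38, was in the range of the ‘CH7’ means of these genes, 2.05 to 3.65. The ‘CH7/9’ means were also low, from 2.64 in *RAB16B* to 3.93 in *ER2*. The genes were picked for a replicate 1 far below replicate 2. In the other direction, the peroxidase gene *PRX112* had 8.29 and 4.21 in ‘CH7/8’ and 6.49 and 5.40 in ‘CH8/9’. *CM-LOX1*, a chloroplast lipoxygenase gene, had 7.60 and 3.74 in ‘CH7/8’ and 5.21 and 5.92 in ‘CH8/9’, and the beta-expansin gene *EXPB3* had 8.29 and 5.23 in ‘CH7/8’ and 6.60 and 6.86 in ‘CH8/9’. With standard errors between 0.67 in *LOL4* and 1.65 in *BCL1*, none of these 10 genes was called.

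**Figure D5:**
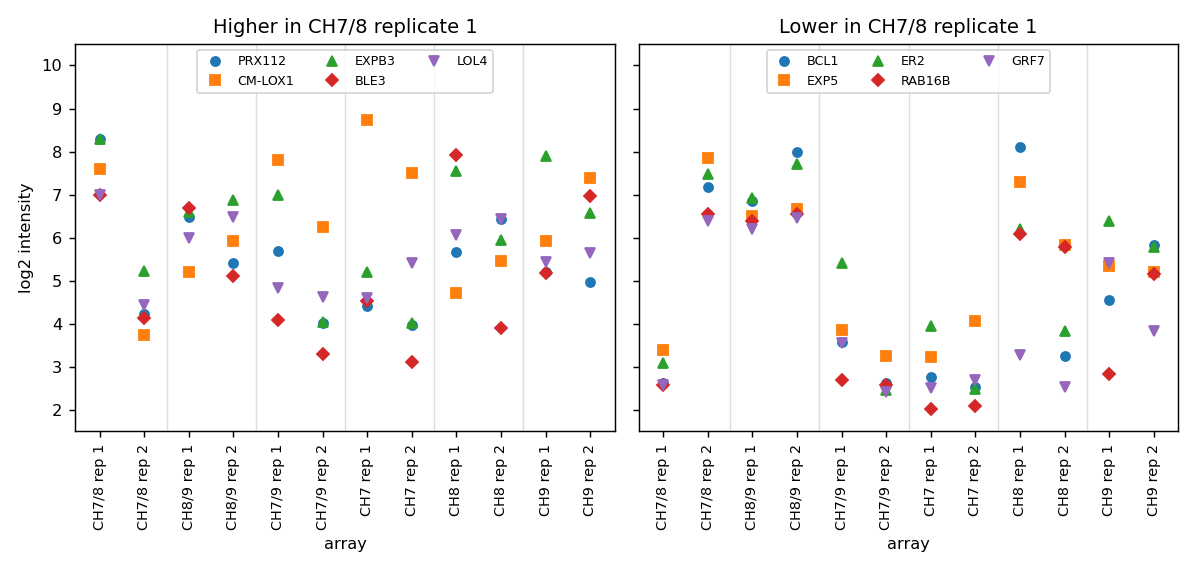
Log2 intensity in all 12 arrays of the 5 named genes in which ‘CH7/8’ replicate 1 lay farthest above replicate 2 (left) and the 5 in which it lay farthest below (right). Genes with both ‘CH7/8’ arrays above, both below or both within the ‘CH8/9’ range were left out of the choice. On the right, the 5 symbols of ‘CH7/8’ replicate 1 lie between 2.57 and 3.38, and those of ‘CH7/8’ replicate 2 between 6.38 and 7.85, near the ‘CH8/9’ arrays except in *EXP5*, where it is higher (7.85 against 6.51 and 6.66).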

How the data were processed

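The deposited values are linear intensity values, 1 per probe set and array. For how the authors made them, the methods give RMA (background subtraction, quantile normalization) but the submitters' processing notes give MAS5. Which was used, and in which version, stays unknown. Log2 was taken without a pseudocount, since the lowest value was 1.58. A probe set's signal depends on the amount of its transcript and on how well the probes match it, which cannot be told apart here.

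A mean per line was fitted over the 12 arrays with limma 3.58.1 in R 4.3.3, with eBayes and Benjamini-Hochberg adjustment, and was checked on simulated data. Thresholds followed the methods. SAM, the test of the methods, was not run, since 2 against 2 arrays allow too few permutations. Gene names came from GEO's platform annotation, updated through the RefSeq table of assembly ASM3414082v1. Of 54922 probe sets, 24080 had 1 gene, 95 several and 30747 none listed. The brightest probe set stood for each of 2739 named genes.

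Members, the 19 gene lists by symbol and the naming rule were chosen with earlier results of these data known. Named genes were the 12 highest and 12 lowest called, filled up with the largest differences without overlap. Added to these were up to 4 without overlap per list, and up to 5 each way with the ‘CH7/8’ arrays farthest apart. That last choice left out genes with both ‘CH7/8’ arrays above, both below or both within the ‘CH8/9’ range. *LOC* genes, *APX8*, *BC1*, further photosynthesis genes and those called between ‘CH7’ and ‘CH9’ were described after their values were seen. The candidate gene at *Hwc3* is not analysed here.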

Additional observations from a re-analysis of the deposited data

Results flagged for a closer look

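*LOC4350688* differed between the hybrids by more than their parents would give on the log2 scale. Its contrast of ‘CH7/8’ minus ‘CH8/9’ beyond 0.5 times ‘CH7’ minus ‘CH9’ was −2.19 (adjusted p = 0.0417 from limma). ‘CH7/8’ exceeded the log2 mean of its parents slightly, while ‘CH8/9’ was far above the log2 mean of a low and a high parent and at 1.20 times their linear mean. The call was lost in most alternatives.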

How the results depend on the processing

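Of the single genes named, 0 changed the direction of their difference under any alternative other than leaving out an array. Leaving out an array of the hybrids changed it in 1 to 7 of 117, all of them uncalled. The 24 probe sets called between the hybrids fell to 5 with a pseudocount of 50 (0 higher and 5 lower), to 10 by least squares without eBayes, and to 0 (1853 at an unadjusted p under 0.05) when only the 4 arrays compared entered limma. With the replicate number as a block (replicate block) there were 15, all among the 24. The labels do not say what replicates with the same number share. Across all probe sets the replicate deviations of ‘CH7/8’ and ‘CH8/9’ correlated at 0.054, and the other lines were not checked. A shared batch was not tested. The block called 0 beyond the parents. Leaving out single arrays gave from 10 to 19 called, in which a line with 1 array was assumed to vary like the others. Without ‘CH7/8’ replicate 1 there were 10, all among the 24, and without ‘CH7/8’ replicate 2 there were 19, of which 12 were. Then 9 were higher and 10 lower, against 6 and 18 with all arrays. Without ‘CH8/9’ replicate 1 there were 13, and without ‘CH8/9’ replicate 2 there were 15.

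Beyond the parents, the count was 0 under quantile normalization (2336 at an unadjusted p under 0.05), median centring, a pseudocount of 50, the arrays compared, a spread that depends on the mean, and least squares without eBayes, and from 0 to 2 without single arrays. The 206 called between ‘CH7’ and ‘CH9’ became 43 with a pseudocount of 50 and by least squares, 762 with array weights, and from 60 to 384 without single arrays. Leaving out arrays of ‘CH8’ and ‘CH7/9’, and the alternatives for the parents, were chosen after seeing the data. At probe sets called between the parents, the unadjusted choice gave 0.28 and −0.15 in the ‘CH7/8’ replicates where ‘CH7’ was above ‘CH9’, and −0.63 and −0.12 where it was below. Without dim probe sets, replicate 2 had 0.54 and −0.63, and under quantile normalization replicate 1 had −0.66 and replicate 2 −0.62 where ‘CH7’ was below. Without single ‘CH8/9’ arrays the values were 0.40 to 0.63 and 0.14 to 0.35 above, and −0.77 to −0.72 and −0.74 to −0.68 below. The cause of these changes was not tested. Dim probe sets near the floor limit the folds.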
